A study of Homo sapiens with 2 samples.

Results

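The genes of sterol and fatty acid metabolism were examined in T47D, a cell line from a human luminal breast cancer that expresses the oestrogen receptor. The list held 57 genes, taken by symbol, out of 11564 named genes on the arrays. They fall into 6 roles: sterol synthesis, control of the SREBP factors, fatty acid synthesis, desaturation and elongation, fatty acid activation and oxidation, and triglyceride synthesis with fatty acid binding. Of the 57 genes, 52 had a measured transcript. STARD4, ACACA, ME1, SCD5 and ACSL5 had no named transcript in the values used and are not analysed here. One array held T47D cells carrying a negative control lentivirus (NC) and the other held T47D cells carrying a lentivirus labelled shTRPS1, a hairpin directed at TRPS1. TRPS1 is a zinc finger repressor of transcription that binds GATA motifs. Both arrays were one-colour NimbleGen arrays hybridised with Cy3-labelled cDNA. The labels name no clone, virus dose or time after infection. With 1 array per group there were no replicates, and the groups could not be tested against each other: every difference is one between these 2 arrays.

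Cells build cholesterol from acetyl-CoA through mevalonate, isoprenoid units, squalene and lanosterol, and build fatty acids from the same precursor through malonyl-CoA. The membrane-bound SREBP factors, held in the endoplasmic reticulum by SCAP and the INSIG proteins when sterols are plentiful, switch on both sets of genes when they are released. SREBP2 acts mainly on sterol genes and SREBP1 mainly on fatty acid genes. Fatty acids are then desaturated, elongated, stored as triglyceride or oxidised in mitochondria, and breast cancer cells are known for a high rate of fatty acid synthesis.

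Values were intensities on a linear scale as the authors deposited them, from which log2 differences, shTRPS1 minus NC, were taken. A gene with several features (transcript accessions) was represented by the brightest. The 2 arrays correlated at r = 0.961 across the log2 values of 28973 features, which are not independent replicates. The background level, the 95th percentile of 60 olfactory receptor features, was 397 on the NC array and 325 on the shTRPS1 array. The targeted transcript TRPS1 read 726 on the NC array and 603 on the shTRPS1 array, a log2 difference of -0.27. That is 17.0% lower with both values above background, well inside the central 95% of the 500 genes nearest to it in brightness (-1.02 to 1.05), so the label shTRPS1 was checked only weakly. All 8 luminal epithelial markers (ESR1, GATA3, FOXA1, EPCAM, CDH1, KRT8, KRT18 and KRT19) were above background on both arrays, with differences between -0.38 and 0.18. Adipocyte markers were represented only by LEP, 1 of 6, which read 212 and 105. Of 5 leukocyte markers 3 had a feature, with readings from 54.9 to 120, all below background, and none of 6 fibroblast markers had one. In such bulk RNA, fewer cells of a type and less RNA per cell cannot be told apart, and the part of other cells in the results was not tested beyond these values.

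Promoter sequences of 50 of the 57 members were found in the RefSeq promoter table, and 5 are shown here, chosen after the values were seen. IDI1 and FADS3 carried the largest differences downward and upward among members above background on both arrays. EBP, at 0.52, had the smallest difference of such members at least 0.5 apart on the log2 scale. SREBF2 and ACSL1 were the members, of the 50 searched, with the sterol element core. ACAT2, DGAT1, DGAT2, FABP5, FASN, FDFT1 and SQLE had no entry in the table. Each line gives the 250 bases before 1 annotated transcription start, 5′ to 3′ on the gene's strand, in lower case. Capitals mark matches on either strand to TCACNCCAC, the core of a sterol regulatory element, to CCAAT, the core of the NF-Y box, or to GATAA, a core bound by GATA factors.
IDI1 (GRCh38.p14, chr10:1048887-1049136, minus strand): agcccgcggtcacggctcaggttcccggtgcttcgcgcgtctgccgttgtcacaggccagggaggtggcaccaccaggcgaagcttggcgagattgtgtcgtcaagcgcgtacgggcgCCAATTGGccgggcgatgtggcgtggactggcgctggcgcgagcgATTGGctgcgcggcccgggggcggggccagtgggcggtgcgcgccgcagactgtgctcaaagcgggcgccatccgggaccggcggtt
EBP (GRCh38.p14, chrX:48521558-48521807, plus strand): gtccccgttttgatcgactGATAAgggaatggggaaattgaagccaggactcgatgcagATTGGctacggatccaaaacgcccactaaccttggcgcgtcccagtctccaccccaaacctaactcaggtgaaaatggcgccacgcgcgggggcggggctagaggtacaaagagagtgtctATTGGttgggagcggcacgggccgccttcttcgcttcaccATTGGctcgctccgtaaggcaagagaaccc
FADS3 (GRCh38.p14, chr11:61891546-61891795, minus strand): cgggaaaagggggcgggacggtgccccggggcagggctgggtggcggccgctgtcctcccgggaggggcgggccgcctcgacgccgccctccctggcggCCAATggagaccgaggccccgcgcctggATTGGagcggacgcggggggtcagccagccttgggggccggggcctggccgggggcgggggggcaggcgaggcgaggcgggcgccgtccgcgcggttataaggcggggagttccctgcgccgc
SREBF2 (GRCh38.p14, chr22:41832855-41833104, plus strand): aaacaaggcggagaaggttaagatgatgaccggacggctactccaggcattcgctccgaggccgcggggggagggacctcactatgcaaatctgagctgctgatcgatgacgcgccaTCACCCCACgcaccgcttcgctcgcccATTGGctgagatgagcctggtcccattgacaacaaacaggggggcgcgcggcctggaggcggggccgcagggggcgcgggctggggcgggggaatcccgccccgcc
ACSL1 (GRCh38.p14, chr4:184805554-184805803, minus strand): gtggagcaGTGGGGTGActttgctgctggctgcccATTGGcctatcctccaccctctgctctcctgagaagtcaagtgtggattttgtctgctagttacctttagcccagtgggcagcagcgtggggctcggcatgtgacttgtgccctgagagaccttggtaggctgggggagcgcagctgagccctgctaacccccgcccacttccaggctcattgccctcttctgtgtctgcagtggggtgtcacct
ACSL1 has 5 starts and IDI1 has 3 starts in the table. The start printed for ACSL1 is the one whose window held TCACNCCAC, and that for IDI1 has the lowest coordinate. In IDI1 a CCAAT match and a reverse match overlap.

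Across windows of 300 bases (250 before the start and 50 after it), TCACNCCAC lay in 2 of 50 members, against 1.51% of the 9330 genes on the arrays that have a promoter in the table. GATAA lay in 8 of 50 members, or 16%, against 19.3%. CCAAT lay in 29 of 50 members, or 58.0%, against 43.2%. Among sterol synthesis genes 13 of 14 held CCAAT, PMVK being the one without it. Counted by window, CCAAT lay in 15 of 19 windows of sterol synthesis genes and in 34.6% of all 35116 windows. The 26 measured members with CCAAT had a median log2 difference of 0.07 and the 19 without it a median of -0.31. No background filter was applied to either group, and the -0.31 is the value of ACSL4, below background on both arrays. Whether CCAAT goes with the direction of a difference was not tested. A match is a description of the letters, and no site or factor is read from it.

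Taken as one set, the lipid genes did not stand apart by the size of their differences. Both arrays were above background for 36 members, 1 array for 2 members (SC5D and FADS2) and neither array for 14. A gene was called if it was above background on at least 1 array and its intensities differed at least 2-fold, a log2 difference of at least 1. Of 38 members above background, 2 were called, both higher in shTRPS1. Over all 6949 genes above background 6.16% were called, 3.78% higher and 2.37% lower, so the members' share of 5.26% was near that of all genes. One of the 2, SC5D, passed the filter only on the shTRPS1 array, with a reading under the NC background level, so a 2-fold difference was not measurable for it. With both arrays above background 1 of 36 members was called, against 2.71% of 5829 genes. A difference of at least 0.5 on the log2 scale was seen in 8 of those 36 members, against 22.6% of all such genes. Of the 8 members 5 were higher (all such genes, 12.6%) and 3 were lower (all such genes, 9.98%).

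**Figure D1:**
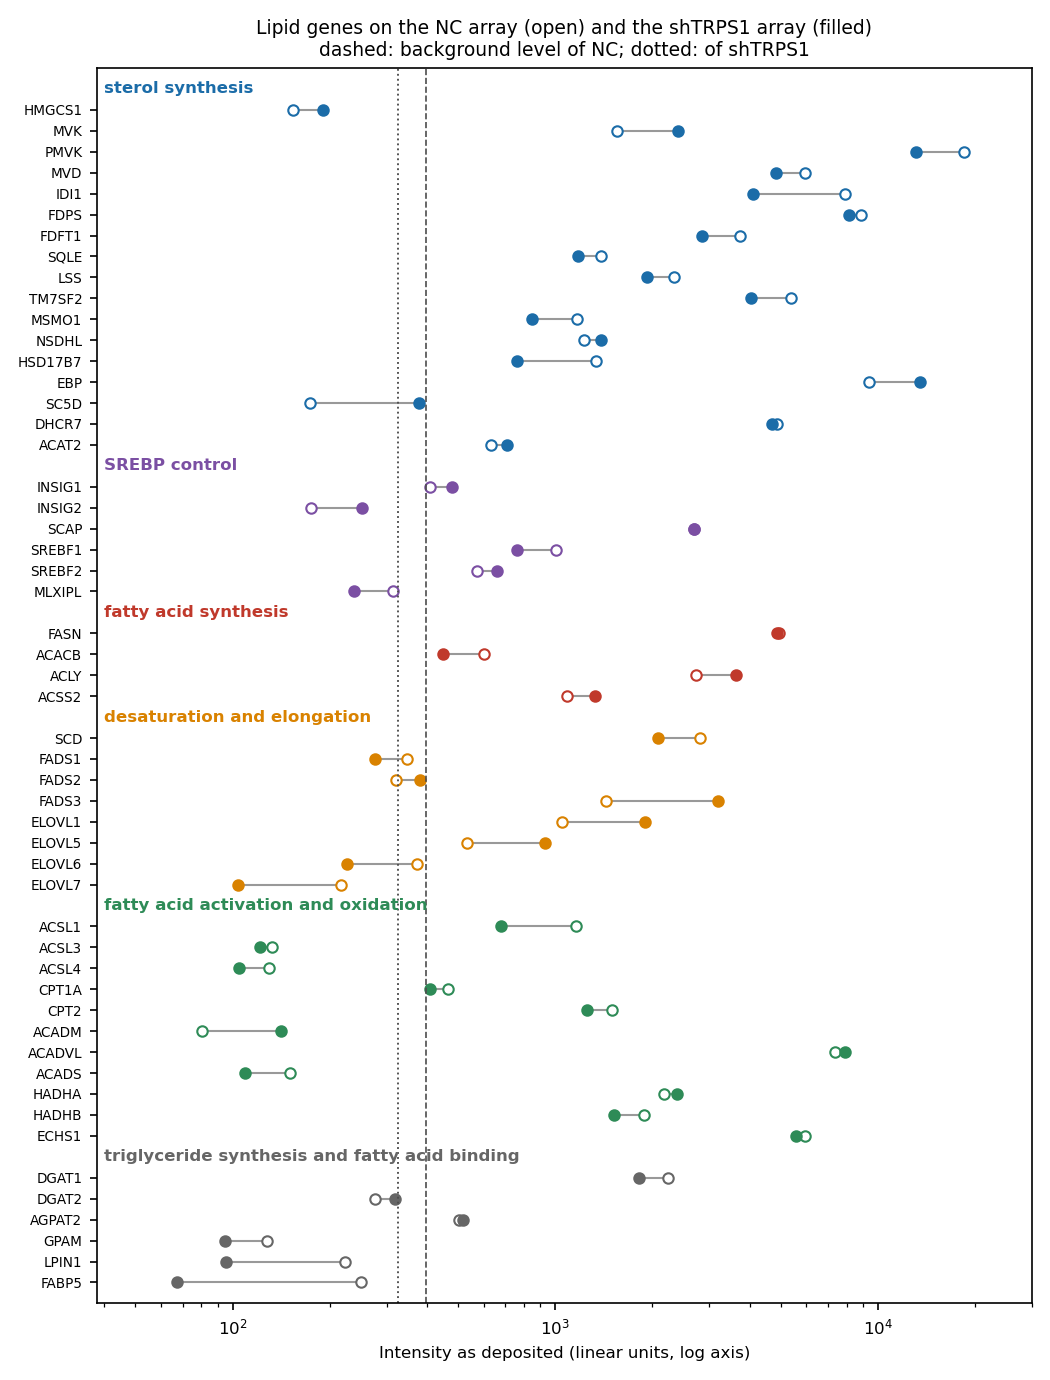
Intensity (log axis) of the 52 measured lipid genes, 1 row per gene, with the NC array as open and the shTRPS1 array as filled points, grouped by role; vertical lines are the background levels of 397 (NC, dashed) and 325 (shTRPS1, dotted). The widest gaps to the right of both lines belong to FADS3, which reads 1433 and 3184, and IDI1, which reads 7883 and 4088.

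The direction leaned to the lower side. With both arrays above background 22 of 36 members had a negative difference, or 61.1%, against 46.8% of all 5829 such genes. With at least 1 array above it the count was 22 of 38, or 57.9%, against 43.1%, but that filter lets in more genes through the shTRPS1 array, whose background level is lower. The median over the 52 measured members was -0.16 and the mean -0.11, against a median of 0.05 over all 11564 named genes. These members include the 14 with neither array above background, and over the 38 above it the median was -0.07, against 0.08 for all genes above background. The middle 50% of members ran from -0.41 to 0.22 and that of all named genes from -0.30 to 0.38. To gauge the spread between features, log2 differences were compared between the 2 brightest features of the same gene. For 435 genes whose features both exceeded background on both arrays, they were a median of 0.26 apart. These gaps correspond to an SD of about 0.29 for a single feature, which covers features within 1 array pair and not the spread between cultures. The features are different transcript accessions, so the SD mixes technical error with any difference between transcripts of a gene. Of the 52 measured members 19 differed by less than that SD, against 43.7% of all named genes. Both shares include genes below background, for which the SD was not estimated. For each gene the differences of the 500 genes nearest in mean log2 intensity, called genes of like brightness here, gave a central 95%. It was left by 3 of the 38 members, IDI1, FADS3 and ELOVL1, and by 6.48% of all genes above background.

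**Figure D2:**
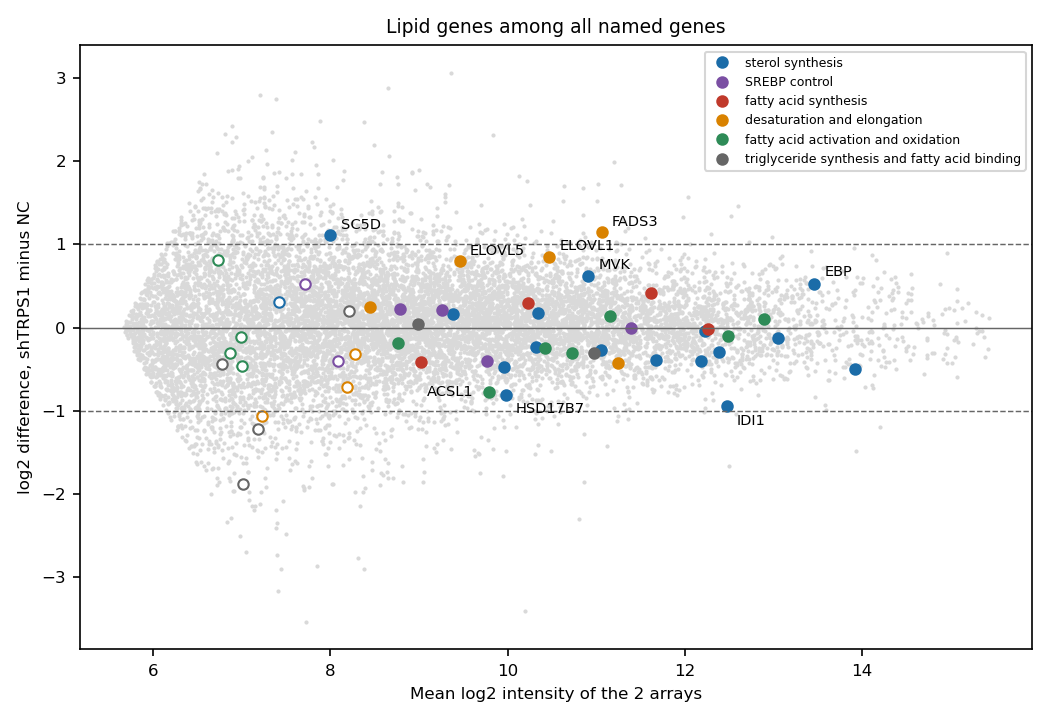
Log2 difference, shTRPS1 minus NC, against the mean log2 intensity of the 2 arrays for all 11564 named genes (grey) and the 52 measured lipid genes (coloured by role, open where neither array was above background); dashed lines mark a 2-fold difference. SC5D and FADS3 are above the upper line, IDI1 lies just inside the lower one at -0.95, and FABP5, LPIN1 and ELOVL7 lie below it with neither array above background.

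Sterol synthesis was the role with the most members above background, 16 of 17 measured. With both arrays above background 11 of 15 were lower on the shTRPS1 array, or 73.3%, against 46.8% of all such genes. The median over the 17 genes was -0.24 with a mean of -0.09, and averaging over features moved the median to -0.13. The enzymes are given here in the order of their reactions. ACAT2, which condenses acetyl-CoA to acetoacetyl-CoA, read 633 and 708, a difference of 0.16. HMGCS1, which makes HMG-CoA, read 154 and 191, below background on both arrays, so its level was not measured here. MVK, mevalonate kinase, read 1552 on the NC array and 2392 on the shTRPS1 array, 1.54-fold higher (log2 difference 0.62). The central 95% of genes of like brightness ran from -0.70 to 0.95, so MVK lay within it.

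PMVK, MVD, IDI1 and FDPS, the next enzymes, all read lower on the shTRPS1 array. No turn in direction is read from this. Before them, ACAT2 differed by less than the SD of about 0.29 for a single feature, HMGCS1 was not measured and MVK lay within its range. PMVK, phosphomevalonate kinase, was bright on both arrays and read 18461 and 13099, a difference of -0.495. MVD, the decarboxylase that forms isopentenyl diphosphate, read 5934 and 4837, a difference of -0.29. IDI1, the isomerase that makes dimethylallyl diphosphate from it, had the largest drop of any member above background. It read 7883 on the NC array and 4088 on the shTRPS1 array, 48.1% lower, or a log2 difference of -0.95. Genes of like brightness ran from -0.65 to 0.73 in their central 95%, and IDI1 lay below that range but short of 2-fold. FDPS, farnesyl diphosphate synthase, read 8868 and 8121, a difference of -0.13.

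The squalene enzymes were all on the lower side by small amounts. FDFT1, squalene synthase, read 3748 and 2857 (-0.39). SQLE, squalene epoxidase, read 1384 and 1175 (-0.24). LSS, which closes the rings to lanosterol, read 2333 and 1929 (-0.27) with its brightest feature, while its other feature read 700 and 741 (0.08), so the features of LSS differed in sign. The next enzymes, TM7SF2, a sterol reductase, and MSMO1, the methyl oxidase, read 5358 and 4053 (-0.40) and 1172 and 846 (-0.47). Every one of the 9 measured members from PMVK to MSMO1 in pathway order was thus lower by its brightest feature, with differences from -0.13 to -0.95 and a median of -0.39. This run was noticed after the values were seen, and only IDI1 in it left the range of genes of like brightness. Within the run FDPS, SQLE and LSS differed by less than the SD of about 0.29 for a single feature.

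The last steps of cholesterol synthesis went both ways. NSDHL, which removes a carboxylated methyl group, read 1224 and 1385 (0.18). HSD17B7, a ketosteroid reductase of the same step, read 1335 on the NC array and 762 on the shTRPS1 array, 42.9% lower (-0.81). EBP, the sterol isomerase, read 9391 and 13482, 1.44-fold higher (0.52). SC5D, the desaturase after it, read 174 and 377, above background only on the shTRPS1 array and below the NC level of 397, so it was called by its measured difference of 1.11 but no fold is given. DHCR7, the last reductase of the Kandutsch-Russell branch, read 4860 and 4706 (-0.05).

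**Figure D3:**
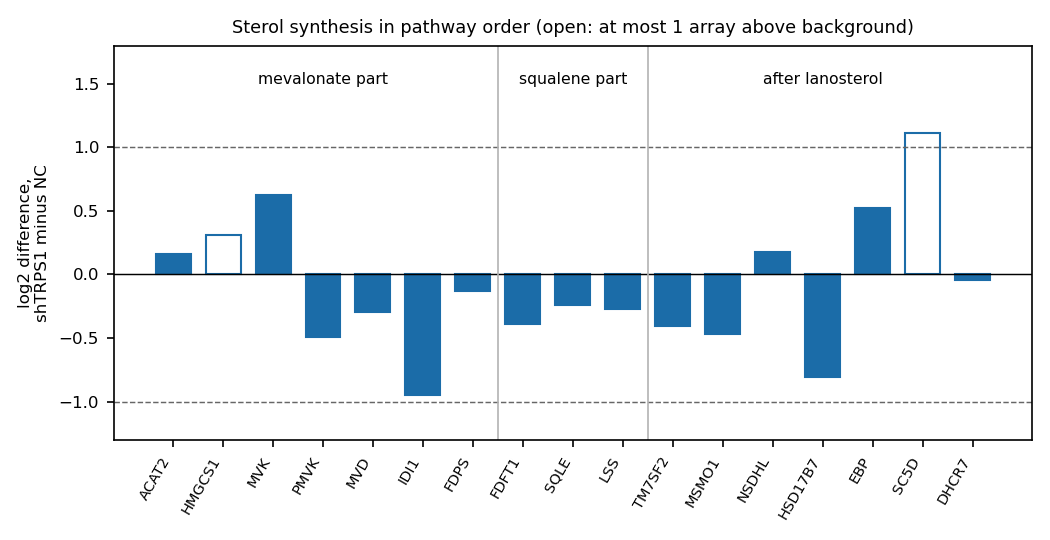
Log2 difference, shTRPS1 minus NC, of 17 sterol synthesis genes in the order of their reactions, with open bars where at most 1 array was above background and dashed lines at a 2-fold difference. Bars from PMVK to MSMO1 are all below 0, between -0.13 and -0.95, whereas EBP and SC5D are at 0.52 and 1.11.

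The genes that control the pathway differed little. SCAP, the sterol sensor that escorts SREBPs, read 2691 and 2683, a difference within 0.01 of 0. SREBF2, which encodes SREBP2, read 571 and 662 (0.21), and SREBF1, which encodes SREBP1, read 1002 and 761 (-0.40). INSIG1, a retention protein and a well known SREBP target, read 410 and 478 (0.22), only just over background. INSIG2 and MLXIPL, the latter encoding the carbohydrate-responsive factor ChREBP, were below background on both arrays, and the features of MLXIPL disagreed in sign at -0.40 and 0.61. All 4 members above background lay within the range of genes of like brightness, and none was called. Transcript levels do not report how much SREBP was processed.

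No fatty acid synthesis gene was called, and its members went both ways. FASN, the fatty acid synthase, read 4920 and 4874, a difference of -0.01. ACLY, which makes cytosolic acetyl-CoA from citrate, read 2720 and 3640 (0.42), and ACSS2, which makes it from acetate, read 1085 and 1332 (0.30). ACACB, the acetyl-CoA carboxylase of the mitochondrial surface, read 599 and 449 (-0.42). The 4 measured genes had a median of 0.14, and all 4 lay within the range of genes of like brightness.

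Desaturation and elongation held the largest differences upward among members bright on both arrays. FADS3, a member of the fatty acid desaturase family known to act on sphingoid bases, read 1433 on the NC array and 3184 on the shTRPS1 array. It was 2.22-fold higher, a log2 difference of 1.15, above the range of -0.71 to 0.93 of genes of like brightness, and was the only member called with both arrays above background. ELOVL1, an elongase of saturated very long chain fatty acids, read 1051 and 1901, 1.81-fold higher (0.855), at the upper edge of its range, which ended at 0.853. ELOVL5, an elongase of polyunsaturated fatty acids, read 533 and 930, 1.75-fold higher (0.80), and lay within its range of -0.87 to 0.97.

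The other members of this role were dim or lower. SCD, the stearoyl-CoA desaturase that makes oleate and a well known SREBP1 target, read 2814 and 2086 (-0.43). FADS2, the delta-6 desaturase, read 321 and 381 and exceeded background only on the shTRPS1 array, while FADS1, the delta-5 desaturase, read 346 and 277, below it on both. ELOVL6, which elongates palmitate, read 374 and 227, and ELOVL7 read 218 and 104, both below background on both arrays, so their measured differences of -0.72 and -1.07 are not interpreted. The median over the 8 measured genes was -0.04, but over the 4 with both arrays above background it was 0.83. Since 3 of those 4 genes were FADS3, ELOVL1 and ELOVL5, the median depended on which members were taken.

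**Figure D4:**
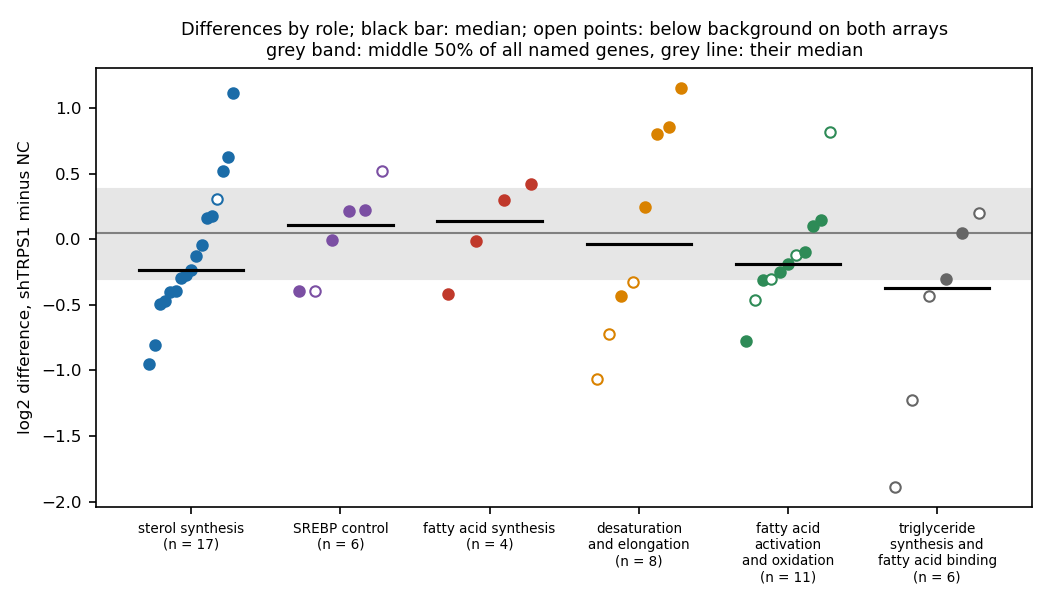
Log2 difference, shTRPS1 minus NC, of each measured gene by role, with black bars at the median and open points where neither array was above background; the grey band and line are the middle 50% and the median (0.05) of all named genes. Sterol synthesis has its median at -0.24 (-0.13 with features averaged) and desaturation and elongation is split, with FADS3, ELOVL1 and ELOVL5 above the band.

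Fatty acid activation and oxidation lay slightly on the lower side, with 5 of 7 members above background on both arrays negative, against 46.8% of all such genes, and a median of -0.19 over 11 measured genes. ACSL1, a long-chain acyl-CoA synthetase, read 1160 on the NC array and 677 on the shTRPS1 array, 41.7% lower (-0.78), inside the range of -0.86 to 0.96. Its relatives ACSL3 and ACSL4 read between 105 and 132 and were below background. CPT1A and CPT2, the carnitine palmitoyltransferases that carry acyl groups into mitochondria, read 465 and 409 (-0.19) and 1495 and 1257 (-0.25). ACADVL, the very long chain acyl-CoA dehydrogenase, read 7369 and 7914 (0.10). The subunits of the trifunctional protein differed in sign, with HADHA at 2165 and 2391 (0.14) and HADHB at 1883 and 1522 (-0.31). ECHS1, the short-chain enoyl-CoA hydratase, read 5938 and 5557 (-0.10). ACADM and ACADS, dehydrogenases of shorter chains, were below background on both arrays.

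Triglyceride synthesis was measured poorly. Only DGAT1, the final acyltransferase, and AGPAT2, which makes phosphatidic acid, were above background on both arrays. DGAT1 read 2237 and 1811 (-0.30). AGPAT2 read 502 and 519 (0.05) with its brightest feature and 383 and 585 with the other, at least 1.47-fold higher by the NC background level. FABP5, an intracellular fatty acid carrier, read 249 and 67.3, and LPIN1, a phosphatidate phosphatase, read 223 and 95.5, so both had large measured differences of -1.89 and -1.23 with neither array above background. DGAT2 and GPAM were below background as well. The median of -0.37 over the 6 genes therefore rests largely on readings that do not exceed background.

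Related genes of the pathways, listed by function with earlier results of these data known, also went both ways. Of 21 other sterol and SREBP pathway genes 19 were measured, and with both arrays above background 4 of 9 were lower, against 46.8% of all such genes. NPC2, which hands cholesterol out of lysosomes, read 5116 and 2920, 42.9% lower (-0.81), below the range of -0.70 to 0.77 of genes of like brightness. ERLIN2, an endoplasmic reticulum protein that limits SREBP activation, read 1110 and 1727 (0.64) with its brightest feature, while its dim features gave -0.56 and 0.11. Of 61 other fatty acid and lipid genes 48 were measured and 36 were above background, with a median of -0.13 over the 48 and no call, against 6.16% of all genes. With both arrays above background 24 of 35 were lower, or 68.6%, against 46.8% of all such genes. SLC27A5, a fatty acid transport protein known from liver bile acid metabolism, read 3443 and 2018 (-0.77), below the range of -0.70 to 0.94 of genes of like brightness. CD36, a fatty acid uptake receptor, read 825 and 503 (-0.71), and its other feature gave -0.38. ECI1, an enoyl-CoA isomerase of mitochondrial oxidation, read 4211 and 2798 (-0.59). ETFB, a subunit of the electron transfer flavoprotein, was lower with both its features, at -0.55 and -0.45. AGPAT3, an acyltransferase, had a difference of -0.53. On the higher side were HACD2, a dehydratase of the elongation cycle, and LPIN3, a relative of LPIN1, at 0.58 each. HACD2 read 406 and 606, only just over background on the NC array, and LPIN3 read 530 and 790. Like CD36, ECI1, ETFB and AGPAT3, both lay within the range of genes of like brightness.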

How the data were processed

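Gene expression was measured on 2 one-colour NimbleGen arrays, 1 per group. The values are intensities on a linear scale that the authors deposited; per the submitters' processing notes RMA was used, with version, steps and genome build not given in the sources used here. No intensity was under 50.0, and a rule that would explain this lower limit is not stated. A second table, whose 8 sample columns match no label, was not used. Of 28973 features 12598 were named, giving 11564 genes, and 16375 were unnamed. Names came from RefSeq accessions (GRCh38.p14 table) or, where that gave none, from the platform annotation. Intensities were put on a log2 scale; the number of arrays limits the precision. Only members called, members at least 0.5 apart with both arrays above background, and the brightest of each role were to be given in full; the others that are named were added so that every member is accounted for. The members and lists were chosen with earlier results of these data known, and the comparison with the 500 genes nearest in brightness and the spread between features were added after seeing the data. A gene of the related lists that was left out of their counts is not reported here. Where 1 array was dim, a fold was taken against that array's background level. Alternatives were 3 scalings (lowess span 0.4), 2 other choices of feature, 3 background filters and thresholds of 1.5-fold and 3-fold. Code was tested on simulated data and used Python 3.11.15, statsmodels 0.14.6 (lowess), pandas 2.3.3, numpy 2.4.6 and matplotlib 3.10.9.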

Additional observations from a re-analysis of the deposited data

How the results depend on the processing

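No paired analysis was possible because each group had 1 array, and no array could be left out. Median-centring, quantile normalization and lowess correction left 2 members called, and 22 to 23 of 38 above background negative, while the share of all genes with a negative difference went from 43.1% to between 46.4% and 47.6%, so the lean to the lower side was smaller against that background. The count of members called was 1 of 36 with both arrays above background (all genes, 2.71%), 5 of 52 with no filter (all genes, 8.52%), 8 at 1.5-fold (all genes, 22.2%) and 0 at 3-fold (all genes, 1.25%). The median of sterol synthesis was -0.13 with features averaged, where LSS changed. With both arrays above background, the median was 0.83 for desaturation and elongation, and -0.13 for triglyceride genes over 2 members; the ratio of summed intensities, shTRPS1 over NC, of desaturation and elongation was then 1.39, against 1.28 over all 8. For sterol synthesis that ratio was 0.873, against 1.02 for all named genes. It sums different probes, so bright ones weigh most. ERLIN2 was at 0.06 when its features were averaged and 0.11 with the median feature. The cause of these shifts was not tested beyond the change in members or features. Genes near the background levels of 397 and 325 are limited by signal.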
